A study of Mus musculus with 6 samples.

Results

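Regional patterning transcription factors are the DNA-binding proteins by which cells of the developing neural tube record where they lie along its head-to-tail and back-to-belly axes. They were followed here as a fixed list of 34 genes among the 24318 gene symbols measured. The members were chosen by symbol from factors that mark forebrain, midbrain, hindbrain, dorsal or ventral origin, and all 34 have a row in the table. Of these, 26 passed the filter on low counts and 8 did not.

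The measurements came from 6 bulk poly-A RNA libraries of cultured mouse brain astrocytes. There were 3 libraries of genotype KO, labelled as knockouts of ADGRB1, an adhesion G protein-coupled receptor, and they were set against 3 libraries of genotype WT. No agent or treatment is given for either genotype, nor which part of the gene was deleted. The labels give neither the brain region nor the age of the animals, nor whether libraries of a genotype came from separate cultures, so each p-value below is relative to the scatter among libraries, part of which could be technical.

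Morphogens secreted at the edges and signalling centres of the neural tube switch these factors on in overlapping bands, and pairs of factors repress each other at the borders. Astrocytes arise from the same positional domains as neurons and keep part of this code after birth. Many of the genes belong to families (Emx, Otx, Pax, Dlx, Zic, Irx), and several lie beside a relative on the chromosome.

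Libraries held 19251607 to 20334442 counts in KO and 17460090 to 18897340 in WT. Adgrb1 itself stood at 158, 140.1 and 117 CPM (counts scaled to library size, with TMM factors) in the KO libraries, against 299, 363 and 317 CPM in the WT libraries. Every KO library lay below every WT library, with a log2 fold change of -1.24 ± 0.16 (SE; edgeR adjusted p = 0.0684). Markers of astrocytes were abundant, with a summed level of 10 markers of 27461 to 31507 CPM in KO and 24211 to 28353 CPM in WT. The cultures also held RNA of other glia: 9 markers of mature oligodendrocytes summed to 2001 to 2436 CPM in KO and 2460 to 3955 CPM in WT, and 10 microglial markers to 1455 to 1793 CPM in KO and 1705 to 2447 CPM in WT. Genes of high GC content were relatively high in KO replicates 1 and 2 and, weakly, WT replicate 2, and relatively low in KO replicate 3 and WT replicates 1 and 3. The Spearman correlations of a gene's deviation from its mean with its GC content were 0.40, 0.37 and -0.41 in the KO libraries and -0.17, 0.062 and -0.35 in the WT libraries.

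The promoters of 6 members are shown because they carry the contrasts described below: Lhx2, the member of highest level, against Pax7, which had 0 counts, and the neighbouring genes Dlx1 and Dlx2, and Zic1 and Zic4. Each window runs from 250 bases before to 50 after the annotated start, 5′ to 3′ on the gene's strand (RefSeq, GRCm38.p6). Capitals mark CpG dinucleotides, the letters CG. The windows are chr2:38339031-38339330 (plus strand) for Lhx2, chr4:139832919-139833218 (minus) for Pax7, chr2:71529195-71529494 (plus) for Dlx1, chr2:71546705-71547004 (minus) for Dlx2, chr9:91365719-91366018 (minus) for Zic1 and chr9:91368722-91369021 (plus) for Zic4.
Lhx2: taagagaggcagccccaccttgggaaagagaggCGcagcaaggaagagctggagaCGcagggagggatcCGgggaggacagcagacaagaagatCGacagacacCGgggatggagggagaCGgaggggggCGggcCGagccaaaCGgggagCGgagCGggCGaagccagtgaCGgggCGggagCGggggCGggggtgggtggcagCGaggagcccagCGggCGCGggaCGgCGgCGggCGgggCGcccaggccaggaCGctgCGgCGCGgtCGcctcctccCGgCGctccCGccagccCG
Pax7: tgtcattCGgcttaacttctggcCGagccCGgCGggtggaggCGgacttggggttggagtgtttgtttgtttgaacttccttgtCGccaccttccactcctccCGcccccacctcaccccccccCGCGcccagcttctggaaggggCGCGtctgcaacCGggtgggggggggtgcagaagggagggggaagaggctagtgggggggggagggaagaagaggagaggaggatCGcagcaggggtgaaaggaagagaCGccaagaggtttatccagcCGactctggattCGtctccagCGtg
Dlx1: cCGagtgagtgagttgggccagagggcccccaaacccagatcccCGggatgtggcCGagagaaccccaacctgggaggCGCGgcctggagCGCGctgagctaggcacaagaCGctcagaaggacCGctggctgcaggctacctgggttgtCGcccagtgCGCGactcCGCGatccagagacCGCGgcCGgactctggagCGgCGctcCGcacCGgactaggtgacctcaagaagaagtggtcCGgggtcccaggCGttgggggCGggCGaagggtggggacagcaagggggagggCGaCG
Dlx2: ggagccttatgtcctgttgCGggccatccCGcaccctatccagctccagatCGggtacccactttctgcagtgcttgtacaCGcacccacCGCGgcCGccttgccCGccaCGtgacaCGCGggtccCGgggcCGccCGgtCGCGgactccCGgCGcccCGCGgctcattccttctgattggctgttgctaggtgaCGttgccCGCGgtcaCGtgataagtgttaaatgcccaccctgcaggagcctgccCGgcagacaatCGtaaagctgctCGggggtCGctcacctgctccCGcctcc
Zic1: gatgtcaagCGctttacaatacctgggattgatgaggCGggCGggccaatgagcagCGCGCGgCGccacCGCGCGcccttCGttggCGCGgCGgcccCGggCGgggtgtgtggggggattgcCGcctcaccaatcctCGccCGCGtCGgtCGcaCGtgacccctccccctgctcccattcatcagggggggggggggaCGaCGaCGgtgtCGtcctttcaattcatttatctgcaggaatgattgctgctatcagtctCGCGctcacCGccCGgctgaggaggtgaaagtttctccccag
Zic4: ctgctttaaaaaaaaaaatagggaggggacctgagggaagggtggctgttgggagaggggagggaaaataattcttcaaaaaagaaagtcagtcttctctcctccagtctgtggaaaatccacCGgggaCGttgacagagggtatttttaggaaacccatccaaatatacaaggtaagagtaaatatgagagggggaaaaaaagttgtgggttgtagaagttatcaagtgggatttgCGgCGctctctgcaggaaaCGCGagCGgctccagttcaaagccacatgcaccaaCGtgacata

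Windows were found for 28 of the 34 members, taking the start farthest upstream where a gene had several. The members' windows held a median of 16 CpG, between 2 and 37, beside a median of 7 over the windows of 27025 genes, and 23 of the 28 lay above that median. Lhx2 held 34, and Pax7, with 0 counts in 6 libraries, held 17. Dlx1 and Dlx2 held 27 and 29, while Zic1 held 31 and its neighbour Zic4 held 8. The windows of Dlx1 and Zic4 lie inside these genes as GENCODE M21 places them, from 71528113 and 91362413. The Zic1 and Zic4 windows are therefore not the adjoining starts of that annotation. The letters TAATTA, the core bound by many homeodomain proteins, were searched on both strands and were present in 4 of the 28 windows (14.3%) and in 5.32% of all windows. The letters TGACAG, bound by Meis and related TALE proteins, were present in 5 (17.9%) and in 19.3% of all windows. A match is a run of letters in this window and is not evidence of binding.

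Forebrain factors stood highest in the list, followed by Zic2, which is grouped here with factors of the dorsal neural tube. Levels of different genes were compared per length, as RPKM (the scaled CPM divided by the exonic length in kilobases), and are given as the mean ± SD over 6 libraries. Lhx2, a LIM-homeodomain factor that specifies cortical identity, was highest at 52.3 ± 4.88 RPKM. It was followed by Emx2, a homeodomain factor of the dorsal telencephalon, at 24.4 ± 2.82 RPKM and Nr2f1 (COUP-TFI), a nuclear receptor that sets caudal and lateral cortical identity, at 21.3 ± 3.69 RPKM. Zic2, a zinc finger factor of the dorsal neural tube and forebrain midline, stood at 13.9 ± 2.15 RPKM. The spread of Emx2 and Nr2f1 overlapped, whereas Lhx2 lay above and Zic2 below them in each of the 6 libraries.

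A middle group lay between 1 and 6 RPKM on average. Dlx2 and Dlx1, homeodomain factors of the ventral telencephalon, were at 5.38 ± 2.10 and 4.12 ± 1.65 RPKM, beside the TALE cofactor Meis2 at 5.30 ± 0.982 RPKM, the forebrain and midbrain factor Otx1 at 4.95 ± 0.925 RPKM and Pax6, a paired-box factor of cortical progenitors, at 4.11 ± 0.475 RPKM. Nr2f2 (COUP-TFII), the close relative of Nr2f1, was at 3.59 ± 2.41 RPKM. Zic1, Irx1, Zic5, Meis1, Gsx2, Sp8, Six3 and Emx1 completed this group, from 2.32 ± 1.09 RPKM for Zic1 to 1.07 ± 0.455 RPKM for Emx1. Their order is not fixed by these data, since the SDs of neighbouring genes overlapped. RPKM use the union of annotated exons as the length, so genes with several long isoforms can be understated.

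**Figure D1:**
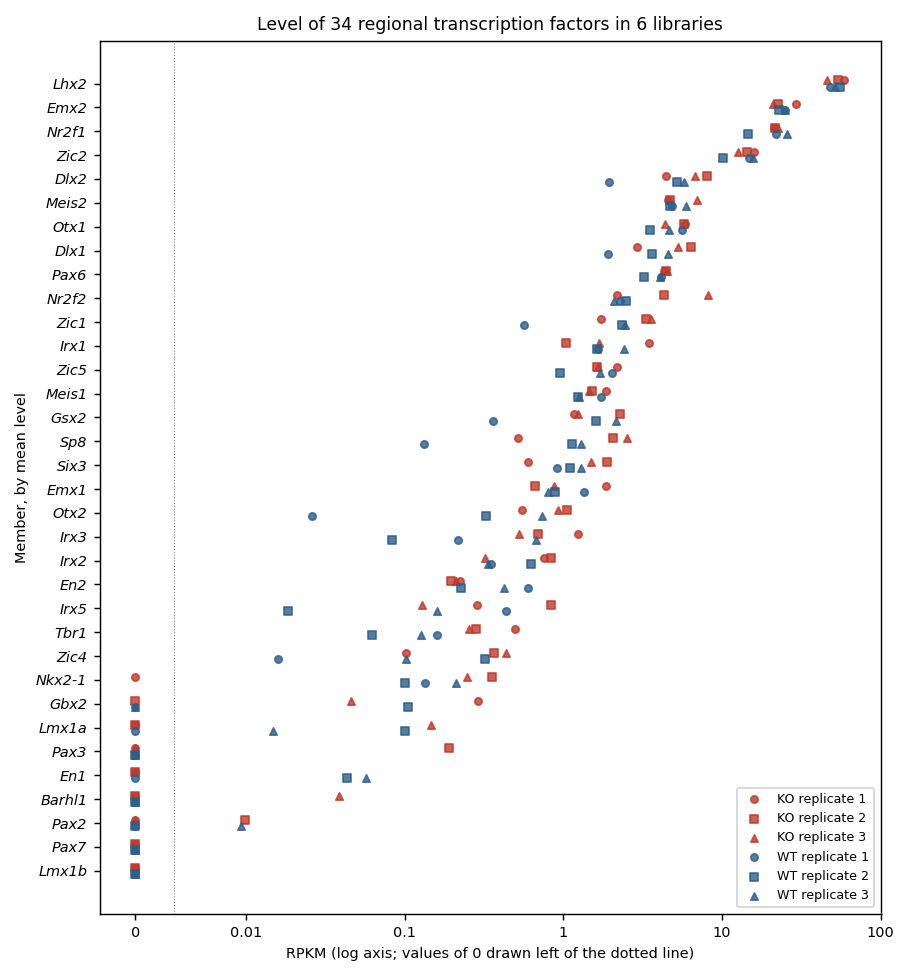
RPKM (log axis) of each of the 34 members in each library, ordered by mean level, with KO in red, WT in blue and symbols for the replicate number. Lhx2 lies highest in all 6 libraries, most factors of midbrain and isthmus lie near the bottom, and Pax7 and Lmx1b are at 0.

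Factors of midbrain and isthmus were at or near 0 except En2, while the Irx genes and Otx1, which also mark other regions, were measured at the levels given with them. Pax7, a paired-box factor of the dorsal midbrain, and Lmx1b, a LIM-homeodomain factor of the isthmus and of dopaminergic and serotonergic neurons, had 0 counts in all 6 libraries, which allows a level of up to 0.150 to 0.160 CPM in a KO library and 0.149 to 0.171 CPM in a WT library (3 counts, counting error only). Pax2, an isthmus factor, had 0, 1 and 0 counts in the KO libraries and 0, 0 and 1 in the WT libraries. En1, the engrailed factor of the midbrain and hindbrain border, had 0, 0 and 0 counts in KO and 0, 2 and 3 in WT. Gbx2, which sets the hindbrain side of that border, had 12, 0 and 2 counts in KO and 0, 4 and 0 in WT. Lmx1a, a roof plate and dopaminergic factor, had 0, 0 and 10 counts in KO and 0, 6 and 1 in WT. These counts rest on a few reads in single libraries and allow no comparison.

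En2 was the exception among them, the member of the midbrain and isthmus group that passed the filter. It held 15, 13 and 15 counts in the KO libraries and 39, 14 and 30 in the WT libraries. The KO libraries lay at 0.785, 0.694 and 0.748 CPM and the WT libraries at 2.13, 0.798 and 1.49 CPM, so the groups did not overlap, by a margin of less than 0.1 CPM between KO replicate 1 and WT replicate 2. Its log2 fold change was -0.98 ± 0.69 (SE; edgeR adjusted p = 0.833), and it was -0.63 without WT replicate 1. Barhl1, a factor of cerebellar granule cells and other rhombic lip derivatives, had 3 counts in KO replicate 3 and 0 elsewhere. Of 7 listed genes of granule neurons, Gabra6 and Atoh1, defining genes of these cells and their precursors, had 0 counts in all 6 libraries. Cbln1 of that list had 30, 12 and 17 counts in KO and 34, 25 and 24 in WT. Neurod1 had 11, 0 and 18 in KO and 9, 0 and 24 in WT, and Cbln3 had at most 6. Barhl1 and Pax6, also listed there, are given with the members.

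Pax3, a paired-box factor of the dorsal neural tube and neural crest, was listed in a single library. It had 0, 22 and 0 counts in the KO libraries and 0, 0 and 0 in the WT libraries, so that its group mean in KO rests on replicate 2 alone. Of the Irx genes, which pattern diencephalon, midbrain and hindbrain, Irx1 was at 1.98 ± 0.846 RPKM and Irx3, Irx2 and Irx5 were below 1 RPKM. Otx2, a factor of forebrain and midbrain that remains on in choroid plexus, was at 0.600 ± 0.383 RPKM, and Tbr1, a T-box factor of early cortical projection neurons, at 0.230 ± 0.154 RPKM. Nkx2-1, which marks the most ventral telencephalon and the hypothalamus, was at 0.175 ± 0.124 RPKM with 0, 19 and 14 counts in KO and 7, 5 and 12 in WT.

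No member passed the test between KO and WT. With edgeR's quasi-likelihood test over all 14131 genes tested, 0 members were called higher and 0 lower at an adjusted p of 0.05, where the background is 0% of all genes in each direction. The smallest adjusted p among the members was 0.793. At an unadjusted p under 0.05 there was 1 member of 26 (Nr2f2), beside 6.16% of all genes. DESeq2, run on 32 members, had 2 (Nr2f2 and Tbr1), beside 7.01% of the 12936 genes with an adjusted p. It called 0 members, where 17 of these genes were called higher and 62 lower. DESeq2 gave no adjusted p for Tbr1, En2, Irx3, Irx5 and Nkx2-1, so it could not call these. The groups did not overlap with KO higher for 2 members (Pax6 and Tbr1), where the background is 5.28% of genes, and with KO lower for 1 (En2), where it is 5.87%. In either direction that is 3 of 26, and 11.2% of all genes had groups that did not overlap, so the share of members is near the background.

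The members' fold changes lay mostly on the side of KO. The log2 fold change was above 0 for 24 of 26 members tested, beside 51.9% of all genes. With total counts in place of TMM it was above 0 for 21, as Lhx2, Nr2f1 and Zic2 then lay below 0. The median was 0.24 over the members and 0.012 over all genes tested. Some marker lists stood apart from all genes as well, while 10 neuronal markers had a median of -0.0017, with 5 of 10 above 0. The median was 0.25 over 10 astrocyte markers and 0.26 over 10 markers of radial glia and neural progenitors, with 9 of 10 above 0 in each. It was -1.02 over 9 markers of mature oligodendrocytes, -0.59 over 8 of their precursors and -0.45 over 10 of microglia and macrophages, with 0 genes called in these lists. The part of the mix of cells in the members' values was not tested. The size of the log2 fold change was at least 1 for 6 members, all of them at a mean below 5 CPM except Nr2f2, beside 4.6% of all genes. The members share libraries, and many of them move together between libraries of 1 genotype, so the count of signs is a description and no test was made of it. The median GC content of the members tested was 54.7%, beside 50.3% over all genes tested, with 17 of 26 above that of all genes. Within the libraries in which GC-rich genes were relatively high (KO replicates 1 and 2, WT replicate 2) the median over members of the log2 CPM difference, KO minus WT, was 0.28, and within the others (KO replicate 3, WT replicates 1 and 3) it was 0.26. A genotype had a single library in each of these sets, and 10 of the 26 members had the same sign in both. The sets were formed by the sign of the correlation with GC alone. It was 0.40 and 0.37 in KO replicates 1 and 2 but 0.062 in WT replicate 2, so a set does not match the genotypes for GC.

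**Figure D2:**
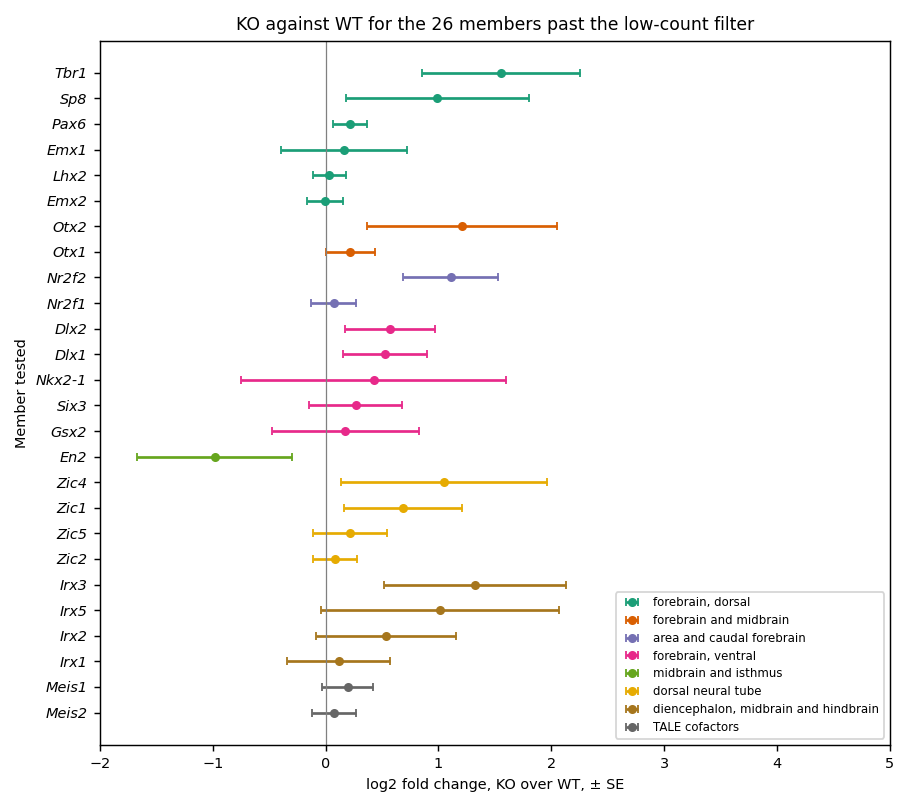
Log2 fold change of KO over WT with its SE for the 26 members tested, coloured by the part of the neural tube they mark. Intervals of 1 SE are narrow for the abundant Lhx2, Emx2 and Nr2f1, near 0, and wide for genes of few counts such as Irx5, Zic4 and Nkx2-1.

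Of the dorsal forebrain factors, Lhx2 and Emx2 had close levels in both genotypes. Emx1 was low, with an imprecise log2 fold change of 0.16 ± 0.56 (SE). Pax6, Tbr1 and Sp8 are given after them. Lhx2 (chromosome 2, 38339281 to 38369733, GRCm38, plus strand) was at 260.1, 236 and 201 CPM in the KO libraries and 212, 244 and 225 CPM in the WT libraries. Its values overlapped, with a log2 fold change of 0.032 ± 0.14 (SE), and its highest library was 1.29 times its lowest. Of the 9940 genes of at least 10 CPM with no library at 0, 15.5% varied less by that measure, whose median was 1.54. Emx2 (chromosome 19, 59458372 to 59465357, plus strand) was at 87.7, 67.8 and 63.4 CPM in KO and 75.4, 69.2 and 75.2 CPM in WT, a log2 fold change of -0.0071 ± 0.16. KO replicate 1 held the highest value and KO replicate 3 the lowest. Emx1, its relative, whose expression is confined to the cortex in the forebrain, averaged 2.47 ± 1.41 CPM in KO and 2.21 ± 0.649 CPM in WT (SD, n = 3 each). Exons of Emx2 overlap its antisense transcript Emx2os by 264 bases, which had 239, 220 and 265 counts in KO and 425, 178 and 293 in WT. No source used here states whether counting used strand, so reads of the overlap are uncertain.

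Pax6 was the most abundant member whose groups did not overlap. It lies on chromosome 2, 105668900 to 105697364 (plus strand) and stood at 50.3, 52.0 and 52.9 CPM in the KO libraries, against 48.6, 37.6 and 47.3 CPM in the WT libraries. The KO libraries lay close together, and WT replicate 2 was low. The log2 fold change was 0.22 ± 0.15 (SE; edgeR adjusted p = 0.833), and it was 0.098 without WT replicate 2. Sp8, a zinc finger factor of the dorsal telencephalon and of olfactory bulb interneurons, is described with the ventral factors below, with which it varied.

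Tbr1 had the largest fold change of the members tested, at a low level. It held 52, 29 and 28 counts in the KO libraries and 16, 6 and 14 counts in the WT libraries, or 2.72, 1.55 and 1.40 CPM in KO and 0.875, 0.342 and 0.698 CPM in WT. Every KO library lay above every WT library. The log2 fold change was 1.55 ± 0.70 (SE; edgeR unadjusted p = 0.0503, adjusted p = 0.803). Markers of cortical excitatory neurons, 7 genes, summed to 62.4, 64.8 and 54.5 CPM in KO and to 56.1, 43.0 and 45.9 CPM in WT, most of it from Fezf2 and Slc17a7. Neurod2 and Neurod6 of that list were each at or below 2.57 CPM in every library, a level like that of Tbr1. Eomes was at 2.67, 0.908 and 4.54 CPM in KO and 0, 0.741 and 2.39 CPM in WT. The log2 fold change was above 0 for 4 of the 7 genes. The part of neuronal RNA in the Tbr1 values was not tested.

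Nr2f2 had the smallest unadjusted p, and the difference came from 2 KO libraries. The gene lies on chromosome 7, 70351944 to 70366735 (minus strand). Its KO libraries stood at 18.9, 37.3 and 70.9 CPM and its WT libraries at 19.6, 21.4 and 18.0 CPM. KO replicate 1 lay within the WT range, KO replicate 2 above it, and KO replicate 3 far above all others. The log2 fold change was 1.11 ± 0.42 (SE; edgeR unadjusted p = 0.0297, adjusted p = 0.793), and it was 0.51 without KO replicate 3. Its relative Nr2f1 (chromosome 13, 78188973 to 78199757, minus strand) was steadier, at 109, 109.7 and 115 CPM in KO and 112, 74.2 and 131 CPM in WT, with a log2 fold change of 0.072 ± 0.20. WT replicate 2 was the lowest and WT replicate 3 the highest for Nr2f1. Exons of Nr2f2 overlap B130024G19Rik and those of Nr2f1 overlap A830082K12Rik, both on the opposite strand, and the counts of these partners were at most 12 and 180 in a library.

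**Figure D3:**
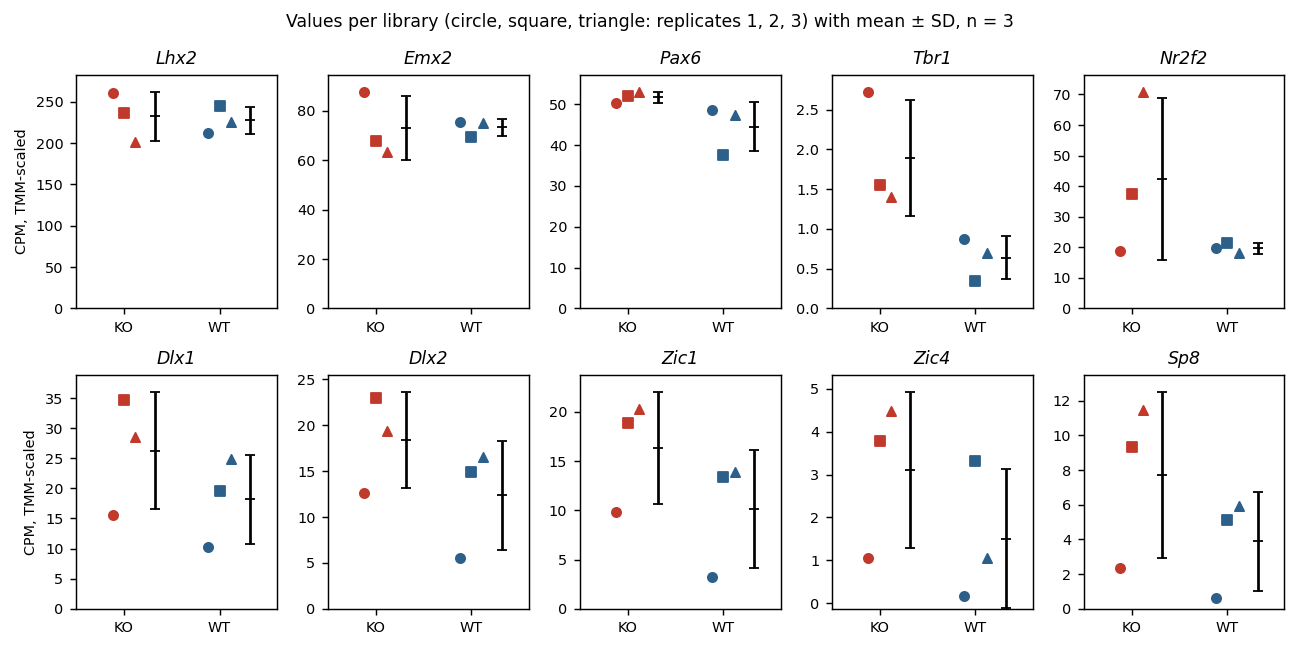
CPM of 10 members in each library, with KO in red and left of WT in blue, and the mean ± SD of 3 libraries beside them. Groups do not overlap for Pax6 and Tbr1. Nr2f2 is high in KO replicates 2 and 3 alone, and WT replicate 1 is lowest for Dlx1, Dlx2, Zic1, Zic4 and Sp8.

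Ventral forebrain factors differed widely between libraries of the same genotype. Summed over Dlx1, Dlx2, Gsx2, Nkx2-1 and Six3, the level was 9.10, 19.0 and 15.1 RPKM in the KO libraries and 5.27, 11.6 and 14.0 RPKM in the WT libraries. Dlx1 was at 15.7, 34.7 and 28.5 CPM in KO and 10.3, 19.5 and 24.8 CPM in WT, and Dlx2 at 12.7, 23.0 and 19.4 CPM in KO and 5.58, 14.9 and 16.5 CPM in WT. For these genes WT replicate 1 was lowest and KO replicate 2 highest, and the groups overlapped. The log2 fold changes were 0.53 ± 0.37 and 0.57 ± 0.40 (SE), and without WT replicate 1 they were 0.25 and 0.22. The ratio of highest to lowest library was 3.37 for Dlx1 and 4.13 for Dlx2, larger than in 97.0% and 98.2% of genes of at least 10 CPM. Gsx2, the homeodomain factor upstream of Dlx genes in the lateral ganglionic eminence, was at 1.94, 3.79 and 2.04 CPM in KO and 0.601, 2.68 and 3.59 CPM in WT. Six3, a factor of the anterior neural plate and of striatal precursors, was at 3.25, 10.3 and 8.18 CPM in KO and 4.97, 5.98 and 7.03 CPM in WT, with its lowest value in KO replicate 1. The antisense gene Dlx1as, whose exons overlap those of Dlx1 by 335 bases, had 276, 486 and 470 counts in KO and 189, 420 and 484 in WT.

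Zic1, Zic4, Sp8 and Otx2 had the same low library as the Dlx genes. Zic1, a zinc finger factor of the dorsal neural tube and septum, was at 9.79, 18.9 and 20.3 CPM in KO and 3.22, 13.3 and 13.9 CPM in WT (log2 fold change 0.68 ± 0.52, SE, and 0.26 without WT replicate 1). Zic4, its relative and neighbour, was at 1.05, 3.79 and 4.49 CPM in KO and 0.164, 3.31 and 1.05 CPM in WT, and Sp8 at 2.36, 9.35 and 11.5 CPM in KO and 0.601, 5.13 and 5.93 CPM in WT. All 3 were highest in KO replicate 3 and lowest in WT replicate 1, with groups that overlapped. Otx2 had 44, 83 and 78 counts in the KO libraries and 2, 24 and 62 counts in the WT libraries, and its log2 fold change of 1.21 ± 0.84 (SE) was 0.66 without WT replicate 1 and 2.26 without WT replicate 3. WT replicate 1 was the lowest library for 7 of 26 members tested (26.9%), beside 19.6% of all genes. WT replicate 2 was lowest for 9 (34.6%), beside 13.5% of all genes, among them Pax6, Otx1, Nr2f1, Zic2, Zic5 and Irx3. KO replicate 1 was highest for 10 members (38.5%), beside 24.0% of all genes, and KO replicate 2 for 8 (30.8%), beside 13.7%.

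Zic2 and Zic5 followed another order than Zic1 and Zic4. Zic2 (chromosome 14, 122475435 to 122479852, plus strand) was at 45.8, 41.5 and 36.4 CPM in KO and 42.5, 29.4 and 45.0 CPM in WT, a log2 fold change of 0.081 ± 0.19 (SE). Zic5, its relative and neighbour, was at 10.6, 8.01 and 8.03 CPM in KO and 9.95, 4.67 and 8.32 CPM in WT, a log2 fold change of 0.22 ± 0.33. For these genes WT replicate 2 was lowest and KO replicate 1 highest, and WT replicate 1 lay within the KO range.

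Genes that lie beside each other on the chromosome were set against each other in the same libraries. Dlx1 and Dlx2 lie tail to tail on chromosome 2, 9.43 kb apart, and their RPKM ratio (Dlx1 over Dlx2) stayed between 0.654 and 0.975 while each gene varied more than 3-fold. Zic2 and Zic5 lie head to head on chromosome 14, 9.76 kb apart, and their ratio lay between 7.25 and 10.7. Zic1 and Zic4 lie head to head on chromosome 9 with 60 bases of shared exons, and they had the same highest and the same lowest library. Their ratio ran from 7.32 to 35.7, widest in WT replicate 1, where Zic4 had 3 counts. The Irx neighbours lie much farther apart. Irx1 and Irx2, 665 kb apart on chromosome 13, had ratios of 1.25 to 7.23, and Irx3 and Irx5, 556 kb apart on chromosome 8, had ratios of 0.498 to 4.53. Reads of the exons shared by Zic1 and Zic4 are uncertain.

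**Figure D4:**
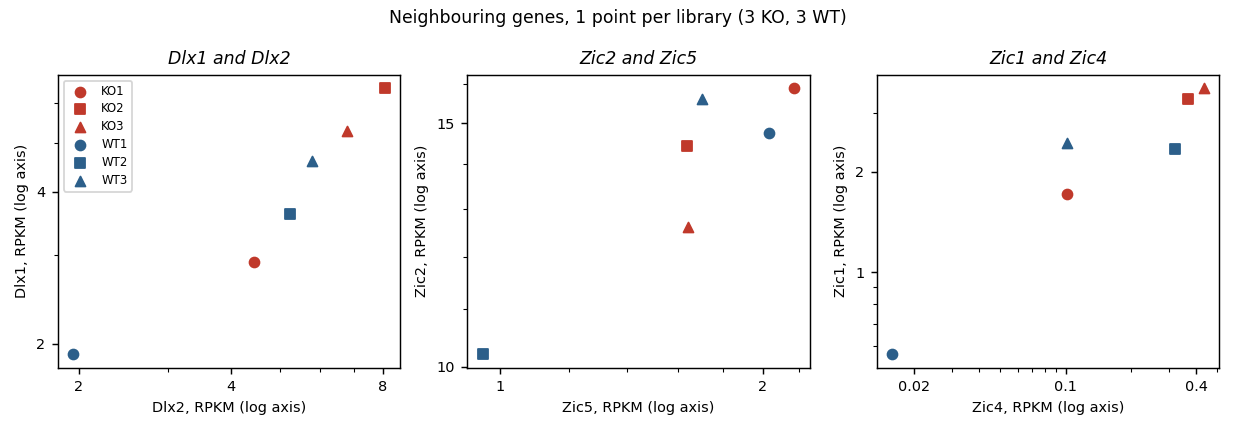
RPKM (log axes) of 3 pairs of neighbouring members, with 1 point for each of the 3 KO and 3 WT libraries. Dlx1 and Dlx2 lie along a line from WT replicate 1 to KO replicate 2, and Zic2 and Zic5 are both lowest in WT replicate 2.

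The Irx genes were low, and their fold changes were imprecise. Irx1 was at 9.06, 2.72 and 4.39 CPM in KO and 4.32, 4.27 and 6.33 CPM in WT, and KO replicate 1 held the highest value. Irx3 had 65, 36 and 29 counts in KO and 11, 4 and 37 in WT, a log2 fold change of 1.32 ± 0.80 (SE; edgeR adjusted p = 0.826). It was 0.87 without WT replicate 2 and 2.42 without WT replicate 3. Irx5 had 17, 49 and 8 counts in KO and 25, 1 and 10 in WT, and its log2 fold change of 1.01 ± 1.05 was 0.0051 without KO replicate 2 and 2.17 without WT replicate 1. Irx2 averaged 2.08 ± 0.902 CPM in KO and 1.43 ± 0.537 CPM in WT (SD, n = 3 each). The groups overlapped for all 4 genes.

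Meis1, Meis2 and Otx1 were of middle level and had small fold changes. Meis2 was at 55.0, 56.7 and 84.4 CPM in KO and 58.3, 56.5 and 71.8 CPM in WT, with replicate 3 the highest in each genotype. Meis1 was at 19.6, 16.1 and 15.4 CPM in KO and 18.2, 13.1 and 13.3 CPM in WT, and Otx1 at 31.6, 31.2 and 23.8 CPM in KO and 30.2, 19.0 and 25.3 CPM in WT. Their log2 fold changes were 0.072 ± 0.19, 0.20 ± 0.22 and 0.22 ± 0.22 (SE), and the groups overlapped. Each of these values was within 1 SE of 0.

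Markers of other cells were set beside the members whose libraries differed most. Nr2f2, Zic4 and Sp8 were highest in KO replicate 3 and next in KO replicate 2, as were Zic1 and, over a narrow range, Pax6. The same held for 7 of 8 genes of olfactory ensheathing glia, the cells that wrap olfactory axons. That list of 8 genes (Npy, Frzb, Fabp7, Ngfr, Prss56, Aqp1, Mybpc1 and Foxd3) was chosen after values of these libraries were seen. Part of its match with these libraries can come from that choice, and no test was made of it. It summed to 189, 881 and 1917 CPM in the KO libraries and to 105, 458 and 222 CPM in the WT libraries. Npy stood at 16.5, 114 and 182 CPM in KO and 0.765, 65.2 and 10.02 CPM in WT, and Foxd3 at 1.68, 40.1 and 74.7 CPM in KO and 0, 15.6 and 2.89 CPM in WT. Ngfr was the exception, at 2.46, 5.45 and 2.29 CPM in KO and 1.69, 4.50 and 1.25 CPM in WT, with KO replicate 2 highest. Fabp7, which is also expressed by radial glia, was the most abundant of them, at 116, 396 and 1159 CPM in KO and 93.6, 199 and 173 CPM in WT. The groups overlapped for the list as for these members, and the order of its sum was the order of Zic4, but for KO replicate 1 and WT replicate 3, which had nearly equal levels of Zic4. Nr2f2 and Sp8 followed it less closely: Nr2f2 was lowest in WT replicate 3, where the list was lowest in WT replicate 1, and Sp8 was higher in WT replicate 3 than in WT replicate 2. The part of these cells in the values of Nr2f2, Zic4 and Sp8 was not tested, and in bulk libraries fewer cells of a type and less RNA per cell cannot be told apart. Lhx2 did not follow the list.

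**Figure D5:**
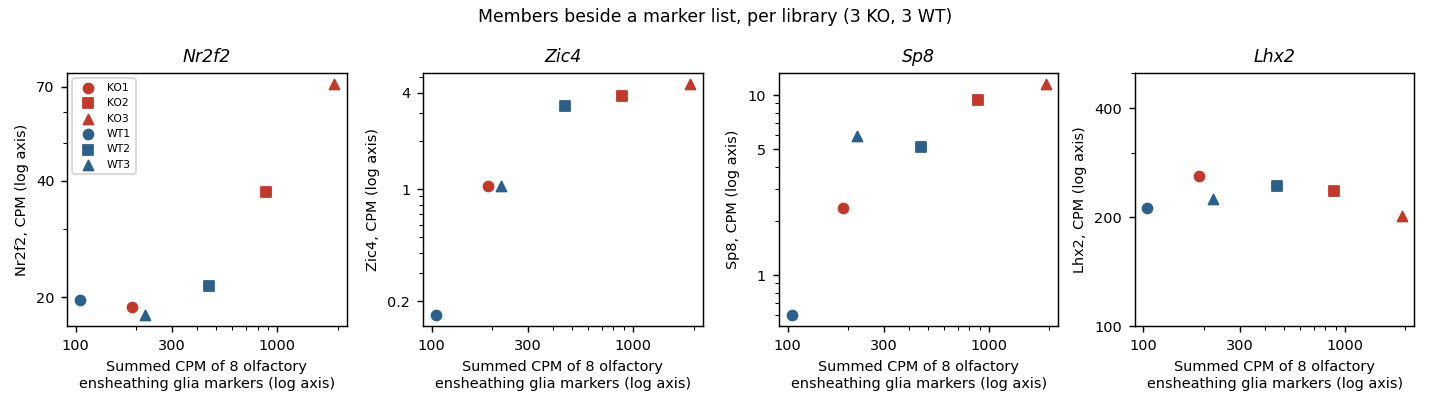
CPM of Nr2f2, Zic4, Sp8 and Lhx2 (log axes) against the summed CPM of 8 olfactory ensheathing glia markers in each library, with KO in red and WT in blue. KO replicates 2 and 3 are highest in the first 3 panels and on the horizontal axis, and Lhx2 is nearly level. The markers were chosen after values of these libraries were seen.

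Markers of other regional cell types were mostly low. Of 9 genes of forebrain inhibitory neurons, which use Dlx factors, the sum was 79.5, 195 and 257 CPM in KO and 47.7, 129 and 73.5 CPM in WT. Npy, which is also in the list of ensheathing glia, is among them, and Dlx5 is also among the related factors below. Gad1 was at 10.6, 15.2 and 16.4 CPM in KO and 7.60, 14.5 and 14.2 CPM in WT, and Lhx6, which marks interneurons of the medial ganglionic eminence, was below 0.5 CPM in every library. Of 8 choroid plexus genes, a list that includes Otx2 itself, Folr1, Kcnj13, Slc4a5 and Kl averaged below 1 CPM. Aqp1 and Ttr gave most of a sum of 68.1, 177 and 198 CPM in KO and 20.9, 102 and 90.2 CPM in WT. Clic6 was at 10.1, 8.81 and 10.6 CPM in KO and 5.52, 6.95 and 6.58 CPM in WT. Aqp1 is also in the list of ensheathing glia. Of 12 genes of meningeal fibroblasts, which express Zic1 in part, 8 averaged below 1 CPM, among them Foxc1, Foxd1, Dcn and Lum. Pdgfrb, which pericytes also express, was at 125, 105 and 96.9 CPM in KO and 109, 84.4 and 101 CPM in WT, and Col1a2 and Col1a1 lay between 19.2 and 48.4 CPM. The list summed to 189, 179 and 145 CPM in KO and 165, 146 and 149 CPM in WT. Their part in the members' values was not tested.

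Other regional factors were read from lists of related genes. Of 60 related factors outside the list of members, 22 passed the filter, 0 were called in either direction and 21 had 0 counts in all libraries. Among the most abundant were Dbx2, a homeodomain factor, at 174 ± 28.3 CPM in KO and 159 ± 22.6 CPM in WT, Nr2e1 (Tlx) at 111 ± 16.3 CPM in KO and 111 ± 24.5 CPM in WT, and Tshz1 at 55.7 ± 4.22 CPM in KO and 49.7 ± 8.50 CPM in WT (SD, n = 3 each). Of 13 Hox genes, which mark hindbrain and spinal cord, 9 had 0 counts in all 6 libraries. The median log2 fold change of the related factors tested was 0.13.

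The signals that set regional identity, with their receptors and targets, were read from a list of 33 genes. Of these 24 passed the filter, 0 were called, and their median log2 fold change was 0.26, beside 0.012 over all genes. Of the signals of the isthmus and roof plate, Fgf8, Wnt1, Wnt3a and Gdf7 had at most 4 counts in a library and Fgf17 at most 6. Bmp7 stood at 71.9, 72.3 and 112 CPM in KO and 64.2, 55.4 and 50.4 CPM in WT. Bmp4 was lower, at 7.75, 1.71 and 5.78 CPM in KO and 11.4, 5.02 and 8.82 CPM in WT. Fgfr3, a receptor of fibroblast growth factors, stood at 1947 ± 445 CPM in KO and 1589 ± 157 CPM in WT, Spry2, a feedback inhibitor of that pathway, at 212 ± 13.3 CPM in KO and 174 ± 38.6 CPM in WT, Ptch1, the hedgehog receptor, at 207 ± 4.64 CPM in KO and 175 ± 37.3 CPM in WT, and Wnt7b at 171 ± 30.9 CPM in KO and 149 ± 16.7 CPM in WT (SD, n = 3 each). The smallest unadjusted p values were those of Hhip, which binds hedgehog ligands (log2 fold change -1.10 ± 0.31, edgeR adjusted p = 0.582), and Spry1 (-0.63 ± 0.20, adjusted p = 0.644). The part of the mix of cells in these values was not tested.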

How the data were processed

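The authors deposited estimated counts by gene symbol, not normalized. Per the submitters' processing notes, TopHat2, featureCounts, GRCm38 and mm9 were used, with no version or role stated. Annotation, strand and multi-mapping of reads are not stated in any source used. Counts were rounded to whole numbers, and 23944 of 24318 symbols (98.5%) matched GENCODE M21 (GRCm38), the source of coordinates, lengths and GC content. Replicates differed beyond sampling noise (chi-square over its degrees of freedom, 22.3 to 89.1).

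The genotypes were compared with edgeR 4.0.16, quasi-likelihood test (R 4.3.3) with TMM, robust dispersions, filterByExpr and Benjamini-Hochberg adjustment over 14131 genes. Log2 CPM used a prior count of 2. The test was tried on simulated data. Alternatives were RLE, total counts, no filter, DESeq2 1.42.0, the replicate number as a block, a GC and length trend removed per library by splines, a batch term for the sign of that trend, and each library left out with the same genes kept. Members and lists were chosen with earlier results of these data known. All members and Adgrb1 are named; of related lists, the 4 most abundant genes and the 2 of smallest p, of which some are not reported here.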

Additional observations from a re-analysis of the deposited data

How the results depend on the processing

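No member was called under any alternative run, with DESeq2 or with a library left out. DESeq2 gave no adjusted p for Tbr1, En2, Irx3, Irx5 and Nkx2-1, so it could not call these. The members' median log2 fold change stayed between 0.17 (total counts) and 0.39 (without WT replicate 3). Fits without a library gave 0.23 to 0.39. Total counts moved the median of all genes to -0.063. Of 26 members, 15 kept their sign throughout. Signs turned, all without a call, as follows; the cause was not tested. With total counts Lhx2 was at -0.047, Nr2f1 at -0.0081 and Zic2 at -0.0017. With the GC and length trend removed Emx1 was at -0.048, Lhx2 at -0.083, Zic2 at -0.063 and Irx1 at -0.075. With a batch term for the sign of that trend Lhx2 was at -0.049. Over fits without a library, values ran from -0.41 to 0.43 for Emx1, -0.17 to 0.084 for Emx2, -0.066 to 0.13 for Lhx2, -0.14 to 0.26 for Nr2f1, -0.28 to 0.66 for Gsx2, -0.096 to 0.20 for Zic2, -0.050 to 0.45 for Zic5, -0.49 to 0.43 for Irx1, -0.15 to 0.19 for Meis2, -0.069 to 0.61 for Six3 and -0.27 to 0.99 for Nkx2-1.

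Adgrb1 was lower in KO throughout, and fits without a library gave -1.35 to -1.13. It passed over all genes with no low-count filter (-1.24), DESeq2 (-1.24), the GC and length trend removed (-1.32), the batch term (-1.34), the replicate block (-1.25) and without KO replicate 3. Adjusted p in these ran from 2.63e-09 (DESeq2) to 0.0184 (edgeR without KO replicate 3). It did not pass with RLE, total counts or any other library left out, where the edgeR adjusted p reached 0.555 (without KO replicate 2). Same-numbered libraries deviated together by correlations of 0.087, 0.15 and 0.28, not all above 0.1, so the numbers were not taken to pair the libraries, although every library correlated best with its own number. With the replicate block 7 members had an unadjusted p under 0.05, beside 9.94% of all genes, and 7 genes of the table were called higher and 37 lower; Irx1 was at -0.035 and Nkx2-1 at -0.075. Calls over all genes, higher and lower, were 2 and 4 with no filter, 17 and 62 with DESeq2, 3 and 21 with the trend removed, 14 and 74 with the batch term and 4 and 23 without KO replicate 3. Members under about 5 CPM rest on few counts, and folds of them are imprecise.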

Other observations

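Dlx5, a Dlx gene outside the list of members, stood at 1.94, 5.77 and 3.84 CPM in KO and 0.328, 5.98 and 3.59 CPM in WT, and it was chosen for mention with these values known. WT replicate 1 was its lowest library, as it was for Zic1, Zic4, Dlx1 and Dlx2.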
